A study of Homo sapiens with 4 samples.

Results

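The array of cells given tumour necrosis factor α (TNFα) was compared directly with the array of cells given interleukin 1β (IL1β), leaving out the control solvent. These are 2 of the 4 arrays of the series. All came from KYSE410, a long-used human cancer line from a squamous tumour of the oesophagus, grown in RPMI medium with fetal bovine serum and antibiotics, and exposed for 24 h to TNFα, to IL1β, to lipopolysaccharide (LPS) or to phosphate-buffered saline (PBS). No dose is stated in the labels. The experiment was a screen for messenger RNAs that respond to inflammatory stimuli. Each condition was read once, on 1 single-colour NimbleGen array, so the differences carry neither an error nor a test, and precision is limited by the number of arrays.

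TNFα and IL1β are the classic paired alarm cytokines of epithelia. TNFα binds the receptor TNFRSF1A, which recruits TRADD, RIPK1 and TRAF2, and it can turn towards cell death through FADD and caspase 8. IL1β binds IL1R1 with IL1RAP, which recruits MYD88, the IRAK kinases and TRAF6. Both routes meet at the kinases TAK1 and IKK, release NF-κB from its inhibitor NFKBIA, and switch on chemokines, adhesion molecules and feedback inhibitors such as TNFAIP3 (A20). The comparison therefore asks where 2 signals with a shared core left different messenger RNA levels.

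The measured genes of the NF-κB core were all under 2-fold different between the arrays, which for lists of this size is also what the share of all genes called would give. With TNFα, the chemokine CXCL8, the interferon transcription factor IRF1 and the receptor adaptor TRAF2 were at least 2-fold higher than with IL1β. So were the antiviral gene MX1, the matrix proteases MMP3 and MMP14 and the transcription factor STAT5A. Each of these genes was read by 1 probe set, with no second reading. With IL1β, the acute phase and complement genes SAA1, SAA2, CFB and C3 and the matrix genes BGN and CCN2 were higher, so that each of these was at least 2-fold lower with TNFα. Several genes of myeloid cells, S100A12 and FCGR2A among them, were also higher with TNFα, while CSF1R was lower. Of 35 measured myeloid markers, 57.1% had a positive difference, beside 50.3% of all genes. In bulk RNA, fewer cells of a type and less RNA per cell cannot be told apart.

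Intensities are linear RMA values (robust multi-array averaging of the probes of a set), and differences are log2 TNFα minus log2 IL1β. Of 17185 named genes, 9270 reached a floor of 260 (8.02 on the log2 scale, the median gene) on at least 1 of the 2 arrays. At least 2-fold higher with TNFα were 173 of these (1.87%), and 161 (1.74%) were lower. Together that is 3.6%, while 82.8% of the 9270 differed by less than 0.5 on the log2 scale. Counts of list members called are read beside this 3.6%, and 1 called member is no result about its list. The median difference of all genes was 0.0029 and the SD over genes at the floor was 0.44. Genes named below as under 2-fold different were chosen with their values seen, apart from a set of mostly inflammatory genes given at any value. Members of a list beyond its 3 largest differences were also chosen after their values were seen. List medians cover all measured members, dim ones included, and the median of members at the floor is given too where it has the other sign or is far larger. The same rule called 6.76% of genes between TNFα and PBS and 6.7% between IL1β and PBS, comparisons that share an array with this one.

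**Figure D1:**
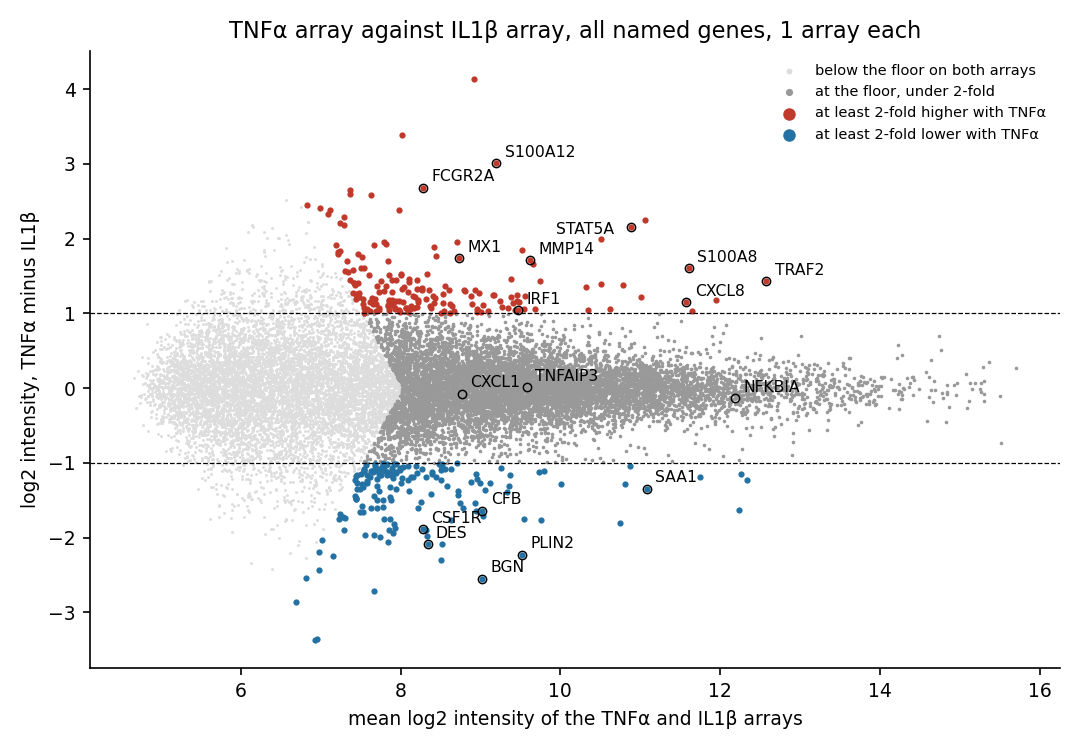
Difference between the TNFα and IL1β arrays (y axis, log2) against their mean log2 intensity (x axis). Each point is a gene, red at least 2-fold higher and blue at least 2-fold lower with TNFα among genes at the floor, and dashed lines mark 2-fold. The 173 higher and 161 lower genes gather at the dim end, while NFKBIA, TNFAIP3 and CXCL1 lie near 0.

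The spread of the differences depended on brightness. The 9270 genes were cut into 5 quintiles of 1854 by their mean level. In the dimmest quintile the SD was 0.69, and 110 genes were higher and 114 lower, 12.1% of the quintile. In the brightest quintile the SD was 0.26, and 8 were higher and 7 lower, or 0.809%. The dimmest quintile thus held most of the differing genes, but the filter adds to this. A gene entered on its brighter array, while the quintiles were cut on the mean level. Genes of the dimmest quintile with a mean under the floor were kept only if the arrays differed. This raises its SD and its share to an extent not measured. The other quintiles lie wholly above the floor, and there the SD still fell, from 0.44 in the next dimmest to 0.26 in the brightest. A value is called near background below 2 times the 5000 random-sequence control probes of its array, at 112 on both arrays. The dimmer of the 2 values was near background for 32 of the higher and 25 of the lower genes, and for these the fold is given as "at least", against that limit.

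Other probes to the same gene gave a second reading of the same 2 RNA samples. For 655 genes a second probe set was also at the floor, and 334 of them (51.0%) differed in the same direction as the first set. Unrelated directions would give a share close to this. Of 11 genes called at least 2-fold different by the kept set, the second set pointed the same way for 7, and for 2 of them it too passed 2-fold. These 2 were SAA1 and CLEC12A. The difference between the sets of a gene had an SD of 0.49, while the kept sets alone had an SD of 0.36. ATP2A2, the calcium pump of the sarcoplasmic reticulum, shows the disagreement, with -1.63 in its kept set and 0.37 in the second. OGG1, a DNA repair glycosylase, had -2.09 in the kept set and -0.28 in the second. Of the 17185 genes, 15836 had a single probe set, usually of 3 probes, and could not be checked this way.

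**Figure D2:**
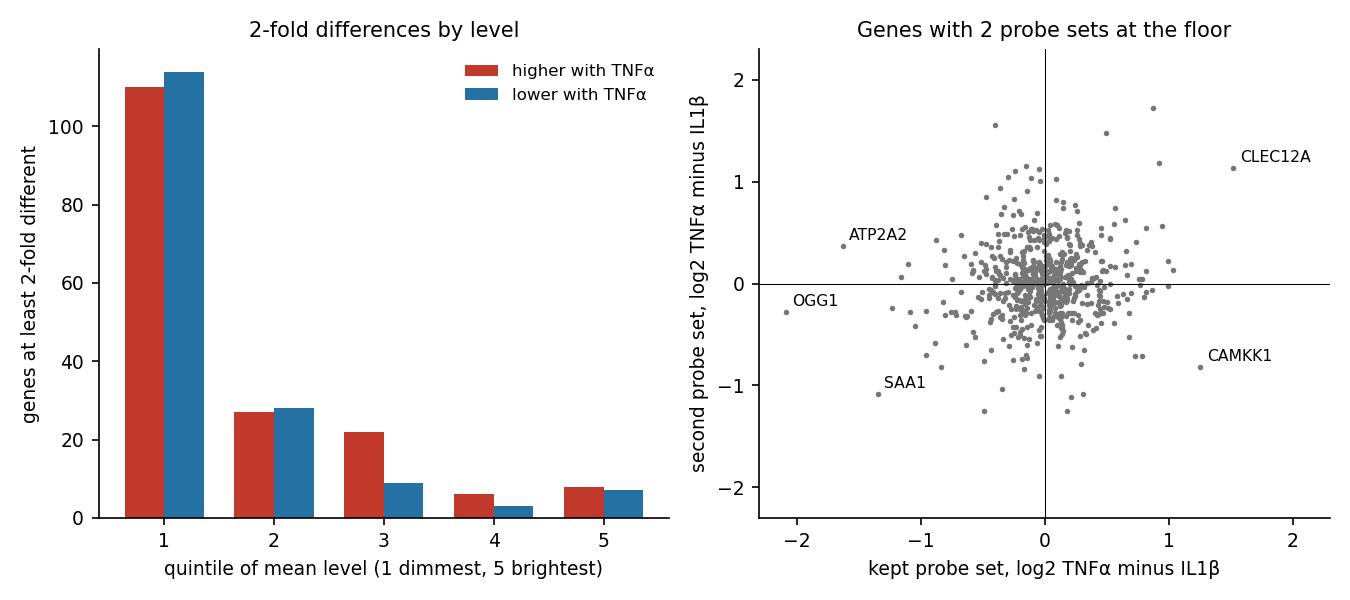
Left, number of genes at least 2-fold higher (red) or lower (blue) with TNFα than with IL1β in each quintile of mean level, counted on a linear axis from 0. Right, log2 TNFα minus IL1β of the second probe set (y axis) against the kept one (x axis), 1 point per gene for 655 genes. The first quintile holds 110 higher and 114 lower genes, and SAA1 and CLEC12A lie far from the centre with both sets in the same direction, OGG1, ATP2A2 and CAMKK1 far from it in 1 set only or in opposite directions.

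Most receptors and proximal adaptors were under 2-fold different. Of 25 measured genes of the TNF receptor route, 20 at the floor, 1 was higher with TNFα and none lower, with a median of 0.12. The called share was 5.0% of those at the floor, beside 3.6% of all genes. The gene called was TRAF2, which links the receptor to the IKK and JNK kinases. It had an intensity of 10052 with TNFα, 3730 with IL1β, 4001 with LPS and 1287 with PBS, 2.70-fold higher with TNFα than with IL1β. TNFα was thus highest and PBS lowest, with IL1β and LPS close together. The signalling receptor TNFRSF1A was alike, at 1186 with TNFα and 1074 with IL1β (0.14). The second receptor, TNFRSF1B, was at 348 with TNFα and 213 with IL1β (0.71), both under its 1226 with PBS. TRAF1, a partner of TRAF2, was at 956 with TNFα and 897 with IL1β (0.09). RIPK1, a kinase of both survival and death signalling, differed by 0.54, and CFLAR, which blocks caspase 8, by 0.53. TNF itself was lower with TNFα, at 172 against 334 with IL1β (-0.96), without reaching 2-fold.

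Of 19 measured genes of the IL1 receptor route, 12 at the floor, 2 were higher with TNFα and none lower, 16.7% of those at the floor beside 3.6% of all genes. The median was 0.04 over measured members and -0.09 over those at the floor, of which 5 were positive and 7 negative. IRAK3, an IRAK family member that restrains the signal, had an intensity of 350 with TNFα, 142 with IL1β, 83.5 with LPS and 70.3 with PBS, 2.46-fold higher with TNFα than with IL1β. IRAK4, the kinase nearest the receptor, had 272 with TNFα, 91.3 with IL1β, 112 with LPS and 211 with PBS, at least 2.42-fold higher with TNFα than with IL1β. For IRAK4 the IL1β and LPS arrays were the low ones, both near background. IRAK1, the next kinase, was bright and alike at 8941 and 8685. MYD88 was at 447 with TNFα and 605 with IL1β (-0.44). The receptor IL1R1 and its decoy IL1R2 were below the floor on both arrays, IL1R1 with 158 and IL1R2 with 147 on the TNFα array and both near background with IL1β. IL1RAP (-0.15) and the antagonist IL1RN (0.06) were below the floor on both arrays too, while IL1B, at 691 with TNFα and 759.7 with IL1β, differed by -0.14.

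Downstream, none of 18 TAK1, IKK and NF-κB genes and none of 16 NF-κB feedback and survival genes was 2-fold different, with 14 and 12 members at the floor. At the 3.6% called over all genes, lists this short would be likely to hold none, so the 0 is no result about them. The medians were -0.02 and -0.0040, beside 0.0029 for all genes. NFKBIA had 4463 with TNFα and 4880 with IL1β, a difference of -0.13. TNFAIP3 had 773 and 763 (0.02), and BIRC3, an inhibitor of cell death, 364 and 362 (0.01). TNIP1, a partner of A20, had 4359 and 4347 (0.0039). The NF-κB subunits RELA (0.06), NFKB1 (-0.02) and NFKB2 (0.04) were also alike. Of 24 genes of the MAP kinase branch and immediate early response, 21 at the floor, none was 2-fold different, with a median of 0.08. The AP-1 subunits JUN (-0.83) and FOSL1 (-0.45) were lower with TNFα without reaching 2-fold.

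Among 8 neutrophil chemokines, 6 at the floor, 1 was higher with TNFα and none lower. This single gene made up 16.7% of those at the floor, beside 3.6% called over all genes. The median was -0.03 over measured members and 0.17 over those at the floor, 3 of them positive and 3 negative. CXCL8, interleukin 8, had an intensity of 4547 with TNFα, 2051 with IL1β, 3889 with LPS and 394 with PBS, 2.22-fold higher with TNFα than with IL1β. All 3 stimuli were above PBS, with IL1β the lowest of them. CXCL2 had 2215 with TNFα and 1746 with IL1β (0.34), CXCL5 1033 and 1041 (-0.01) and CXCL1 427 and 449 (-0.07). CXCL3 was near background on both arrays. Of 18 chemokines for T cells and monocytes only 2 reached the floor and none was 2-fold different, with a median of 0.13 over measured members and 0.49 at the floor. CCL5 had 1195 with TNFα and 1118 with IL1β (0.10), and CCL3 862 and 466 (0.89), while CCL2 and CCL20 were near background on both. CXCL10, an interferon-induced chemokine, was below the floor at 118 and 66.8.

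Of 30 cytokines and growth factors, 13 at the floor, 1 was higher with TNFα, the EGF receptor ligand EREG, with 310.0 with TNFα, 136 with IL1β, 502 with LPS and 276 with PBS (2.28-fold higher with TNFα than with IL1β). The list's median was 0.18. IL6 had 1886 with TNFα and 1427 with IL1β (0.40). Adhesion molecules and immune checkpoints had 1 of 22 members lower, PECAM1 of vessel and blood cells (-1.11), with 11 at the floor and a median of -0.01. ICAM1, which binds leukocyte integrins, was at 405 with TNFα and 533 with IL1β (-0.40), and VCAM1 was near background on both arrays. The mitochondrial superoxide dismutase SOD2 differed by 0.22, and its second probe set gave 0.20.

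**Figure D3:**
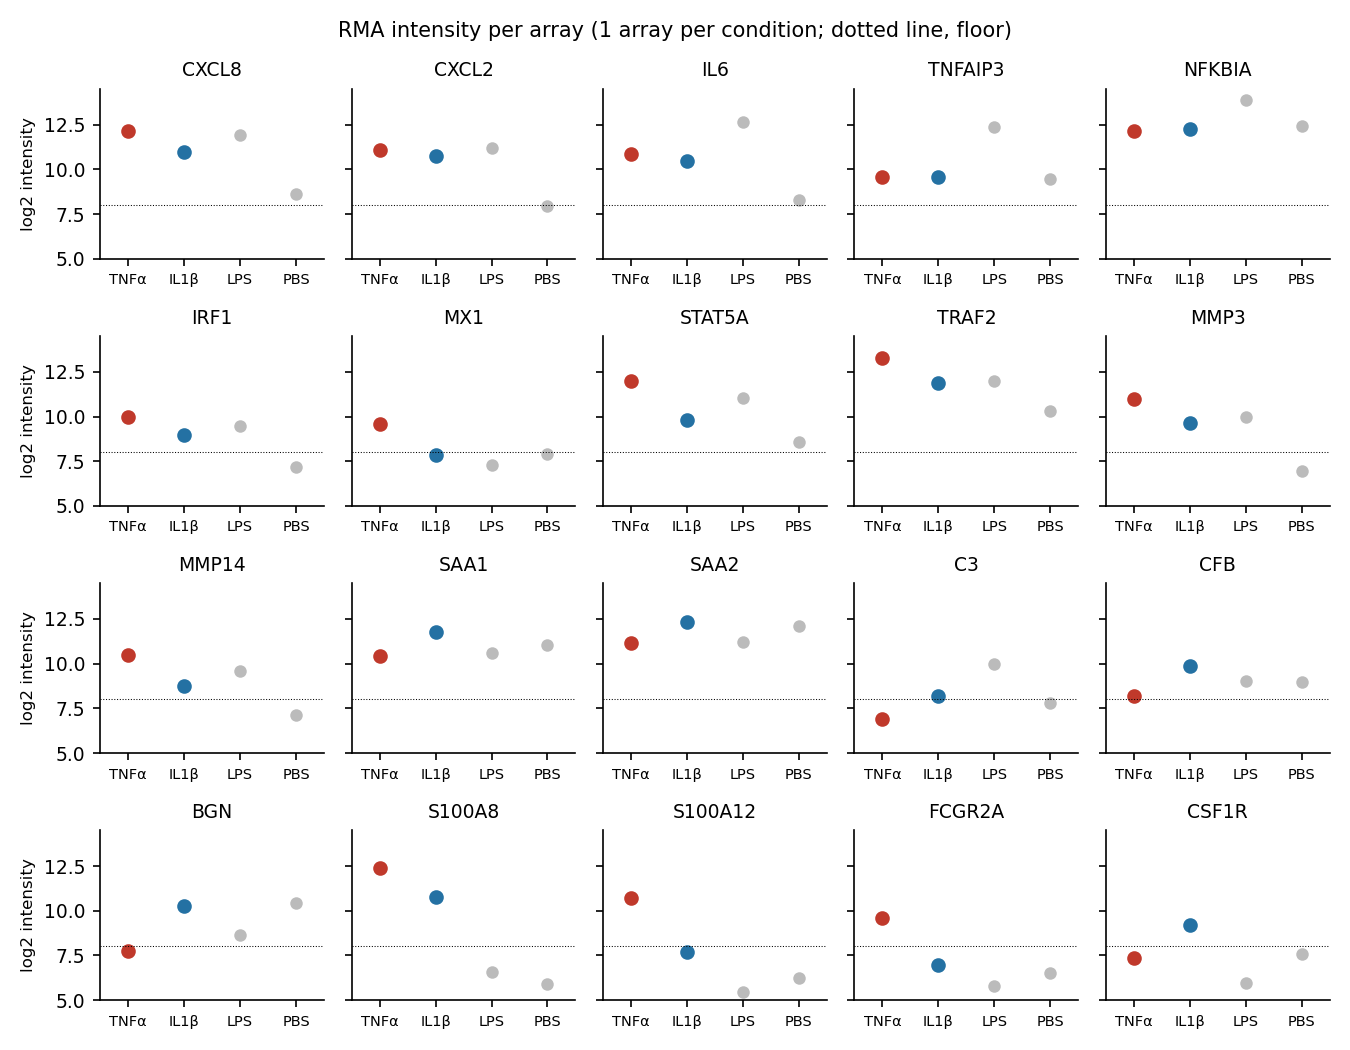
Log2 RMA intensity (y axis) of 20 genes on the 4 arrays (x axis), 1 point per array, TNFα red, IL1β blue, LPS and PBS grey. The dotted line is the floor of 8.02. TNFAIP3 and NFKBIA lie level between TNFα and IL1β, CXCL8, IRF1 and MMP14 are higher with TNFα, and SAA1, CFB and BGN are higher with IL1β.

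Of 44 measured interferon-stimulated genes, 33 at the floor, 3 were higher with TNFα and none lower. The called share was 9.09% of those at the floor, beside 3.6% of all genes. In all, 34 of the 44 (77.3%) had a positive difference and the median was 0.29, beside 50.3% and 0.0029 for all genes. Other lists had positive shares of this order, with 77.8% of squamous epithelial markers, 70.4% of cell cycle genes, 69.7% of squamous differentiation genes and 68.0% of TNF receptor genes. MX1, an antiviral GTPase, had an intensity of 781 with TNFα, 233 with IL1β, 157 with LPS and 236 with PBS, 3.35-fold higher with TNFα than with IL1β. TNFα alone stood above the other 3 arrays. RSAD2 (viperin) had 548 with TNFα and 249.5 with IL1β (2.20-fold), and the RNA sensor IFIH1 (MDA5) had 362 and 178 (2.04-fold). Much of the family differed little, with OAS1 at 0.01, OAS3 at 0.03 and ISG15 at 0.37. IFIT2 ran the other way, at -0.61. TRIM22, a restriction factor below the floor on both arrays, had 50.8 with TNFα and 173 with IL1β.

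Of 31 interferon regulatory factors and JAK-STAT genes, 21 at the floor, 3 were higher with TNFα and none lower, with a median of 0.02. The called share was 14.3% of those at the floor, beside 3.6% of all genes. IRF1, which drives interferon and antigen presentation genes, had an intensity of 1023 with TNFα, 495 with IL1β, 704 with LPS and 147 with PBS, 2.07-fold higher with TNFα than with IL1β. STAT5A, a transcription factor downstream of cytokine receptors, had 4003 with TNFα, 900.5 with IL1β, 2064 with LPS and 389 with PBS, 4.45-fold higher with TNFα than with IL1β. The repressor BCL6 had 412 with TNFα and 191 with IL1β (2.15-fold). For IRF1 and STAT5A the order of the arrays was TNFα, LPS, IL1β and PBS. Of 20 class I antigen presentation genes, 17 at the floor, none was 2-fold different, with a median of -0.01. TAP1, the peptide transporter, differed by -0.15 and the immunoproteasome subunit PSMB9 by 0.78.

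Some acute phase and complement genes were lower with TNFα. Of 31 measured members of the acute phase, complement and antimicrobial list, 19 at the floor, 4 were lower with TNFα and 1 higher. The called share was 26.3% of those at the floor, beside 3.6% of all genes, and the median was -0.24. The list as a whole was nearly even, with 9 positive and 10 negative differences at the floor and 41.9% positive among measured members, beside 50.3% of all genes. CFB, complement factor B of the alternative pathway, had an intensity of 295 with TNFα, 918 with IL1β, 530.4 with LPS and 502 with PBS, 3.11-fold lower with TNFα than with IL1β. C3, the central complement protein, had 118 with TNFα, 287 with IL1β, 1019 with LPS and 227 with PBS, 2.44-fold lower with TNFα than with IL1β. On both genes TNFα was the lowest array, and IL1β was the highest for CFB only. The single higher member was CD55, a brake on complement at the cell surface, with 436 with TNFα and 186 with IL1β (2.35-fold).

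SAA1, a serum amyloid A protein of the acute phase, had 1364 with TNFα, 3463 with IL1β, 1523 with LPS and 2119 with PBS, 2.54-fold lower with TNFα than with IL1β. Its second probe set had 412 with TNFα, 875 with IL1β, 810.2 with LPS and 828 with PBS, a difference of -1.09. SAA2 had 2275 with TNFα, 5161 with IL1β, 2341 with LPS and 4459 with PBS (-1.18). TNFα was thus the lowest and IL1β the highest array in all 3 probe sets, and PBS lay between. SAA1 and SAA2 are near-identical copies, and probes could read both, so the 3 sets are not independent genes. Other members of the list were alike, such as the iron-binding protein LCN2 at 1259 and 1224 (0.04). PTX3, a pentraxin, leaned to TNFα at 1811 and 942 (0.94), and LYZ, lysozyme, to IL1β at 5600.3 and 10389.6 (-0.89).

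The promoters of CXCL8, IRF1 and CFB are shown because all 3 differed and are known targets of NF-κB, and IRF1 and CFB of STAT factors too. The 250 bases before each start come from RefSeq, build GRCh38.p14, 5′ to 3′ on the gene's strand. Capitals mark matches on either strand to the wide κB pattern (GGG and CC with 5 free bases between), the strict κB pattern GGANTTTCC, the C/EBP pattern TTNNGCAA, the GAS pattern of STAT factors TTCNNNGAA, or the ISRE pattern of interferon factors (GAAA, 2 free bases, GAAA), and neighbouring capitals can be overlapping matches. The windows are chr4:73740319-73740568 (plus strand), chr5:132490774-132491023 (minus strand) and chr6:31945845-31946094 (plus strand).
CXCL8: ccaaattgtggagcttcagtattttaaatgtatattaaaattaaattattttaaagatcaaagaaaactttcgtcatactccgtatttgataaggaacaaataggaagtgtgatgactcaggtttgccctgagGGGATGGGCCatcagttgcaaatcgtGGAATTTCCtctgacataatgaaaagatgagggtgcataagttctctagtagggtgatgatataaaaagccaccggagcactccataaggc
IRF1: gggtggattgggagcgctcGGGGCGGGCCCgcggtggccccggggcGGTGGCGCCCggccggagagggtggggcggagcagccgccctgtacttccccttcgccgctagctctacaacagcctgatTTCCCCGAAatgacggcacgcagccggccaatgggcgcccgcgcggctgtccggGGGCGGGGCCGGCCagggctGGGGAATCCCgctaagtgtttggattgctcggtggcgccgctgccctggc
CFB: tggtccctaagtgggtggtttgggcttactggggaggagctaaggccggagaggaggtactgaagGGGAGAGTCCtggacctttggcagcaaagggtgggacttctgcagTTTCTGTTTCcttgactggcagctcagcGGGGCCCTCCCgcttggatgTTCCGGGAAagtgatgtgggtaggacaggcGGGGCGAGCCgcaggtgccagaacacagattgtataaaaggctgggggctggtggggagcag
The CXCL8 window holds GGAATTTCC from base 91 to 83 before the start, and the IRF1 window holds GGGGAATCCC from base 50 to 41 and TTCCCCGAA from 124 to 116. The CFB window holds TTCCGGGAA from 92 to 84 and an ISRE match from 140 to 131. None of the 3 held a C/EBP match. A match describes letters and is not evidence of binding, and a missing match says only that these letters are not in the window.

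Over all 10911 windows of 7578 genes at the floor, 68.8% held the wide κB pattern, 1.35% the strict one, 6.29% the C/EBP, 5.36% the GAS and 2.48% the ISRE pattern. Of 205 windows of genes higher with TNFα the shares were 69.8%, 3.41%, 6.34%, 6.34% and 4.39% in the same order. Of 163 windows of genes lower with TNFα they were 61.3%, 1.23%, 7.36%, 7.36% and 3.07%. The strict κB shares rest on 7 windows of the higher genes and 2 of the lower ones.

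Matrix genes were split between the stimuli. Of 27 matrix proteases and inhibitors, 13 at the floor, 2 were higher with TNFα and none lower. The called share was 15.4% of those at the floor, beside 3.6% of all genes. The median was -0.01 over measured members and -0.16 over those at the floor, 5 of them positive and 8 negative. MMP14, a membrane collagenase, had an intensity of 1432 with TNFα, 436 with IL1β, 772 with LPS and 139.5 with PBS, 3.29-fold higher with TNFα than with IL1β. MMP3, stromelysin 1, had 2055 with TNFα, 802 with IL1β, 988 with LPS and 124 with PBS, 2.56-fold higher with TNFα than with IL1β. Both were lowest with PBS and highest with TNFα.

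Of 36 extracellular matrix genes, 24 at the floor, 4 were lower with TNFα and none higher. The lower ones were 16.7% of those at the floor, beside 1.74% of all genes. The median was -0.14 and 33.3% of measured members were positive, beside 50.3% of all genes, and the prostaglandin synthesis list had the same median and share with no member 2-fold different. BGN, the small proteoglycan biglycan, had an intensity of 214 with TNFα, 1251 with IL1β, 404 with LPS and 1363 with PBS, 5.84-fold lower with TNFα than with IL1β. The TNFα array was lowest, and IL1β lay beside PBS. CCN2, a growth factor of connective tissue, had 124 with TNFα and 336 with IL1β (2.71-fold lower), and COL6A1, a collagen VI chain, had 157 and 352 (2.24-fold lower). THBS2, thrombospondin 2, had 152 with TNFα and 341 with IL1β (-1.16). Of 24 genes of epithelial-mesenchymal transition, 21 at the floor, only VIM was 2-fold different, the mesenchymal filament vimentin, with 3298 with TNFα and 7326 with IL1β (2.22-fold lower). That list's median was 0.15. Of 33 squamous differentiation genes, 24 at the floor, only EMP1, a membrane protein, was 2-fold different, with 1109.7 with TNFα and 402 with IL1β (2.76-fold higher). The median of that list was 0.17.

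**Figure D4:**
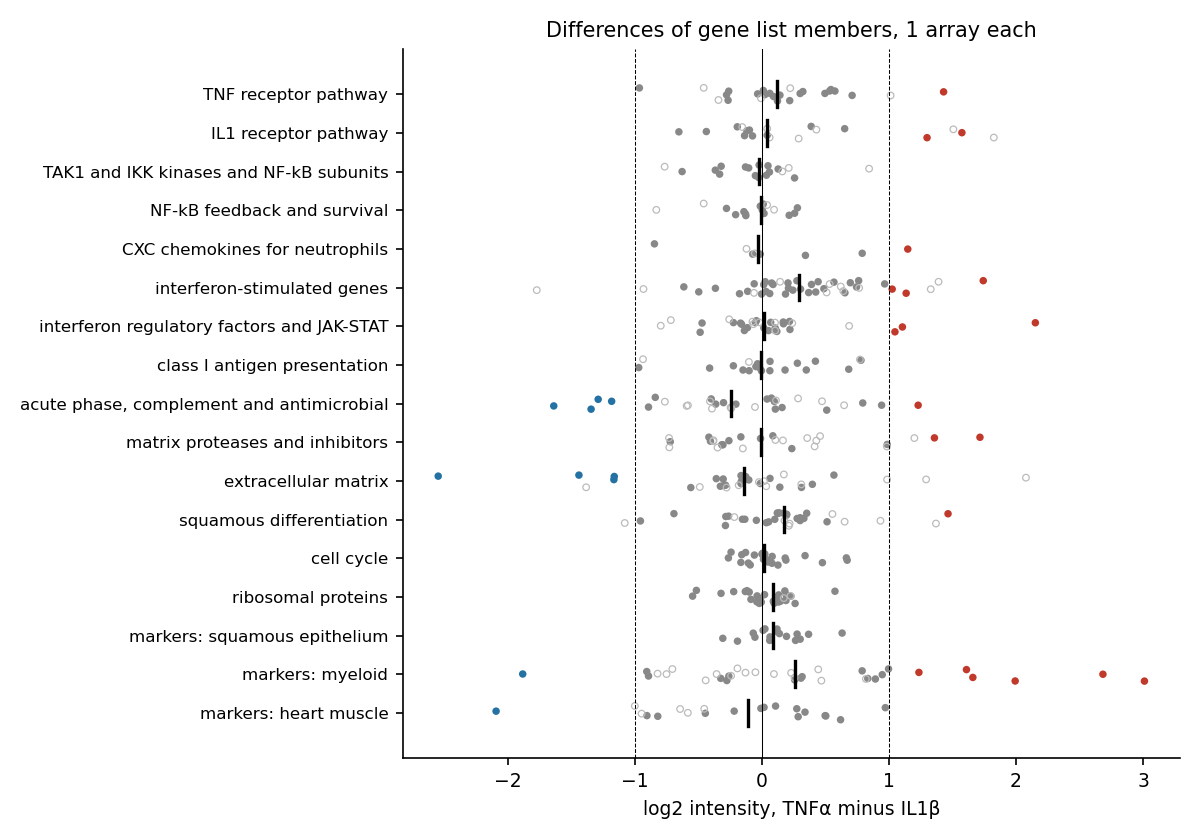
Log2 TNFα minus IL1β (x axis) of the measured members of 17 gene lists (rows). Filled points reach the floor on either array, red higher and blue lower with TNFα by at least 2-fold (dashed lines), open points lie below the floor, and the bar is the median of measured members. Interferon-stimulated genes and squamous epithelial markers lie mostly right of 0, extracellular matrix genes mostly left, and the myeloid row has the widest spread.

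Markers of other cell types differed between the 2 arrays as well. Of 35 measured myeloid markers, 20 at the floor, 6 were higher with TNFα and 1 lower, 35.0% of those at the floor beside 3.6% of all genes. The median was 0.26 over measured members and 0.81 over those at the floor. Of the 35, 20 (57.1%) had a positive difference, beside 50.3% of all genes. The summed intensity of the list was 33212 with TNFα, 25535 with IL1β, 6416 with LPS and 13101 with PBS. S100A12, a neutrophil alarmin, had 1669.8 with TNFα, 207 with IL1β, 43.2 with LPS and 75.7 with PBS, 8.06-fold higher with TNFα than with IL1β. FCGR2A, an Fc receptor, had 789.6 with TNFα and 123 with IL1β (6.43-fold), and FCGR3A had 2906 and 729.7 (3.98-fold). S100A8 had 5440.4 with TNFα, 1782 with IL1β, 95.5 with LPS and 58.8 with PBS, 3.05-fold higher with TNFα than with IL1β. FCN1 (3.16-fold) and ITGAX (2.36-fold) were higher too, while CSF1R, the macrophage growth factor receptor, had 162 with TNFα and 597 with IL1β (3.68-fold lower). CLEC12A, a myeloid lectin outside the list, had 546 with TNFα and 190.0 with IL1β (2.87-fold higher), and its second probe set had 359 and 164.

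Not all myeloid genes were 2-fold different. S100A9, the partner of S100A8, had 3983 with TNFα and 2144 with IL1β (0.89). PTPRC, the pan-leukocyte phosphatase CD45, had 1295 with TNFα and 1046 with IL1β (0.31), and TYROBP 838 and 1048 (-0.32). LYZ, given above with the acute phase genes, is on the myeloid list too and was lower with TNFα without reaching 2-fold. It was brighter on both arrays than the other members named here. The defining markers CD14, ITGAM and MPO were near background on both arrays, as were 6 of the 35 in all. Because S100A8, S100A9 and S100A12 stand in the S100 list too, its 2 higher members of 19, S100A12 and S100A8, are myeloid markers as well. Its 1 lower member was S100A1 (-1.16), 16 of the 19 were at the floor, and its median was -0.0038. The called S100 members were 18.8% of those at the floor, beside 3.6% of all genes. The part of myeloid RNA in these and in the interferon, complement and cytokine differences above was not tested.

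Heart muscle markers were bright on both arrays, although the labels name a squamous carcinoma line, with a summed intensity of 62721 with TNFα, 71882 with IL1β, 18496 with LPS and 48483 with PBS. Of 20 measured, 15 at the floor, only DES, the muscle filament desmin, was 2-fold different, with 157 with TNFα and 669 with IL1β (4.26-fold lower). The median was -0.11 over measured members and 0.11 over those at the floor, 9 of them positive and 6 negative. The cardiac myosin MYH6 had 14709 with TNFα and 17101 with IL1β (-0.22). Fibroblast markers summed to 5276 with TNFα and 5361 with IL1β and had none of 15 members different, with 5 at the floor and a median of -0.01, or -0.35 at the floor. Endothelial markers summed to 2534 and 2755, with PECAM1 lower among 16, 5 at the floor, and a median of -0.18. Lymphoid markers summed to 4821 and 4441, with FOXP3, a regulatory T cell factor (1.08), higher among 28, 6 at the floor, and a median of 0.07, or -0.01 at the floor. Fibroblast, endothelial and heart muscle cells also make matrix, vimentin and desmin, and their part in those differences was not tested. All 18 squamous epithelial markers were at the floor and none was 2-fold different or near background on any array. The defining markers of the labelled cell type were thus present. So were bright members of the myeloid and heart muscle lists. Among them were PTPRC and MYH6, which a pure culture of the labelled cell type would not be known to make. Where that RNA came from was not tested, and each value is that of the RNA on the array labelled TNFα or IL1β. Of the squamous markers, the basal keratin KRT5 had 58314 with TNFα and 48523 with IL1β, and TP63, the basal cell transcription factor, 949 and 933.

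The stress, death and growth lists each held at most 1 member that was 2-fold different. At the 3.6% called over all genes, lists this short would be likely to hold no more, so these counts are no result about them. Cell cycle genes (27 measured, 27 at the floor), ribosomal proteins (29 and 27), housekeeping genes (24 and 24), hypoxia and glycolysis genes (25 and 22), oxidative stress genes (20 and 16) and prostaglandin synthesis genes (21 and 9) held no member that was 2-fold different. Their medians were 0.02, 0.09, 0.0051, -0.05, -0.0034 and -0.14 in that order. PTGES, which makes prostaglandin E2, had 511 with TNFα and 449 with IL1β (0.19), both far under its 3941 with LPS. Of 31 cell death genes, 23 at the floor, only APAF1, the apoptosome scaffold, was 2-fold different, with 353 with TNFα and 169 with IL1β (2.09-fold higher), and the median was 0.07. The death adaptor FADD (-0.26) and caspase 8, CASP8 (-0.03), differed less. Of 19 genes of the unfolded protein and integrated stress responses, 14 at the floor, only ERN1, a sensor of the endoplasmic reticulum, was 2-fold different, with 279 with TNFα and 105 with IL1β, at least 2.48-fold higher, and the median was 0.10. DDIT3, a stress transcription factor, was at 265 with TNFα and 461 with IL1β (-0.80). In all, 13 of the 33 lists had no member 2-fold different, which is again no result about those lists, most of which are short.

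The largest difference of all was that of ZNF35, a zinc finger protein read by 1 probe set, with 2034.9 with TNFα, 115 with IL1β, 88.9 with LPS and 218 with PBS, 17.6-fold higher with TNFα than with IL1β. In the other direction FAM209B, at 37.98 with TNFα and 391.6 with IL1β, was at least 3.51-fold lower and had the largest difference (-3.37). Both were named after their values were seen. Leaving out zinc finger and uncharacterised symbols, of the 10 largest each way whose probe sets ran in the same direction, 7 higher and 7 lower ones had their dimmer value near background. SLC8A1, a sodium-calcium exchanger, had 841 with TNFα and 80.6 with IL1β, at least 7.49-fold higher. The natural killer receptor NCR1 was at least 3.62-fold higher and AQP9, a channel for water and glycerol, at least 2.73-fold higher. The transcription factors DLX5 and SALL1 were at least 5.14-fold and 2.82-fold higher, the adhesion molecule CNTN3 at least 4.31-fold and the nuclear import receptor IPO5 at least 2.62-fold. For DLX5, at 464 with PBS and 767 with LPS, and for CNTN3, at 651 with PBS, the IL1β array was the one set apart. XYLT1, which starts proteoglycan sugar chains, had 38.8 with TNFα and 398 with IL1β, at least 3.56-fold lower. AKR1D1, a steroid reductase, was at least 4.65-fold lower and OPA1, a mitochondrial fusion protein, at least 2.76-fold lower. GNG11, LPA, PTPRD and RASAL1 were at least 2.50-fold, 2.62-fold, 2.44-fold and 2.42-fold lower in that order. ZBTB26, above background on both arrays, had 164 with TNFα and 807 with IL1β (4.91-fold lower). PLIN2, a coat protein of lipid droplets, was measured on both arrays, with 339 with TNFα, 1586 with IL1β, 1005 with LPS and 1816 with PBS, 4.68-fold lower with TNFα than with IL1β.

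Among bright genes the differences were few. The upper 2 quintiles of level held 14 higher and 10 lower genes, and those named here were chosen after their values were seen. HMGB1, a chromatin protein that also acts as an alarmin, had 5914 with TNFα and 2619 with IL1β (2.26-fold higher). EVI2B, a leukocyte surface protein, had 2839.8 with TNFα and 1091 with IL1β (2.60-fold higher). LGALS3, galectin 3, had 918 with TNFα, 3219 with IL1β, 1050.5 with LPS and 3757 with PBS, 3.51-fold lower with TNFα than with IL1β. ATP2A2 was 3.09-fold lower in its kept set only.

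Set against the PBS and LPS arrays, most of the differing genes had neither the TNFα nor the IL1β array set apart. Among the 173 genes higher with TNFα, the TNFα array was at least 2-fold above all 3 others for 47, MX1 and S100A12 among them. The IL1β array was at least 2-fold below all 3 others for 19. Among the 161 lower genes, the TNFα array was below all others for 17 and the IL1β array above all others for 36. PBS lay between the 2 stimuli for 109 of the higher and 112 of the lower genes. A single deviating array would give the same picture as a response to its stimulus, and with 1 array per condition the 2 cannot be told apart.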

How the data were processed

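Total RNA of the 4 cultures was made into cDNA, labelled with Cy3 by a 1-colour NimbleGen kit and hybridised to 1 array each, per the labels' protocols. The authors deposited 1 linear RMA intensity per probe set and array, per the file headers. RMA corrects background, normalises quantiles across arrays, which would hide a shift shared by all genes, and sums up the probes of a set. The software version is not given in the sources used here. With 1 array per condition, no test was run.

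Values were put on a log2 scale. Of 45033 probe sets, 18866 (41.9%) were named through their RefSeq accession, giving 17185 genes, and the other 26167 were left unnamed. A gene was read from its brightest probe set over the 4 arrays. Differences are TNFα minus IL1β, counted at 2-fold where the brighter value was at or above the median gene level of 8.02 on the log2 scale. Near background is under 2 times the array's 5000 random control probes, whose deposited intensity was 55.8 with TNFα and 56.1 with IL1β.

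Genes were named by rule. Taken were the 10 largest differences each way whose probe sets shared a direction, without uncharacterised and zinc finger symbols. Up to 3 differing members of each of 33 gene lists were added, and genes with 2 probe sets past 2-fold in 1 direction. A set of 29 measured genes was given at any value, mostly inflammatory but with BGN, FCGR2A and S100A12 in it. Of these 29, 22 at the floor, 6 were higher and 1 lower, with a median of 0.14. Their called share was 31.8% of those at the floor, beside 3.6% of all genes. BGN, FCGR2A and S100A12 were also among the 10 largest differences, so the count partly repeats them. A few genes are not reported here. The members and lists were chosen with earlier results of these data known. Alternatives were another floor, fold, probe set rule, offset, normalisation and the series table. Tables were handled with pandas 2.3.3 and numpy 2.4.6 in Python 3.11.15, loess came from statsmodels 0.14.6 and plots from matplotlib 3.10.9, and the counting steps were tested on simulated data. The simulated noise was the same at every level and narrower than the spread of the real differences. That test therefore checked the counting only and says nothing about how many calls here are noise.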

Additional observations from a re-analysis of the deposited data

How the results depend on the processing

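With 1 array per condition, the counts rest on the size rule alone. At 1.5-fold they were 602 higher and 584 lower, and at 3-fold 39 and 47, in place of 173 and 161. Without a floor 498 of the 17185 genes were higher and 449 lower; with the floor at the 75th percentile 44 and 30 of 4620. Counting every probe set, named or not, gave 460 and 412 of 24522. Adding an offset of 50.9, the 10th percentile of intensity, left 108 and 99. The mean of all probe sets gave 175 and 154, of which 163 and 148 were shared with the main counts. A loess curve gave 174 and 164, repeated quantile normalisation 173 and 164, and the series matrix values gave 173 and 161. Of alternatives chosen after seeing the data, the floor and probe set from the 2 arrays alone gave 172 and 161, and leaving out markers of other cell types 166 and 158. No named gene difference of at least 2-fold changed sign. List medians were checked for a change of sign only where they were at least 0.2 in size, and none of those changed. With members at the floor only, the smaller medians of the IL1 receptor, neutrophil chemokine, lymphoid and heart muscle lists did change sign. Of 355 recomputed gene differences, 14 moved by more than the SD of 0.49 between probe sets, all 14 under the offset, and of 238 list medians 10 moved by more than 0.1. Many of these could not move. The series matrix values were identical for all 45033 probe sets. Most of the 71 named genes had 1 probe set, which the mean of all sets leaves as it is. Repeated quantile normalisation acted on values already normalised that way. Signal over background limits the dim genes most. No paired analysis was possible because each condition has 1 array.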

Other observations

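Outside the lists, muscle and leukocyte genes were also among those at least 2-fold different, in both directions. Those named here were chosen after their values were seen, from no list and with no tally. MYOM1, a protein of the muscle M-band, had 113 with TNFα, 470.2 with IL1β, 131 with LPS and 318 with PBS, 4.16-fold lower with TNFα than with IL1β. PYGM, muscle glycogen phosphorylase, was at least 2.71-fold lower with TNFα, and FABP3, a fatty acid carrier of heart muscle, 3.12-fold lower. FABP3 had 280 with TNFα, 874 with IL1β, 1625 with LPS and 301 with PBS. LPS was thus its highest array, whereas the summed heart muscle markers were lowest with LPS. SMPX, a small muscle protein, ran the other way, with 436 with TNFα and 152 with IL1β (2.87-fold higher). FBLN2, the matrix protein fibulin 2, had 409 with TNFα, 1372 with IL1β, 595 with LPS and 1351 with PBS, 3.35-fold lower with TNFα than with IL1β. ITGAL, an integrin chain of leukocytes, had 1395 with TNFα, 386 with IL1β, 285 with LPS and 438 with PBS, 3.61-fold higher with TNFα than with IL1β. GCA, a calcium-binding protein of neutrophil granules, had 819 with TNFα and 212 with IL1β (3.87-fold higher), and 106 with LPS and 98.6 with PBS. Other leukocyte genes were lower with TNFα, with BST1, a surface enzyme of myeloid cells, at 215 with TNFα and 727 with IL1β (3.39-fold lower). KLRK1, a receptor of natural killer cells, had 172 with TNFα and 519 with IL1β (3.03-fold lower). KIR2DS1, another such receptor from a family of near-identical genes, was 3.81-fold lower.

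Across the 10271 genes at the floor on any array, the TNFα array stood at least 2-fold above all 3 others for 47 genes and below them for 23. The IL1β array stood above for 36 and below for 38, the LPS array above for 415 and below for 290, and the PBS array above for 108 and below for 96. Second probe sets shared the direction of the kept set in 57.8% of genes between TNFα and PBS, in 59.5% between IL1β and PBS and in 65.7% between LPS and PBS, beside 51.0% between TNFα and IL1β.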
